A study of Mus musculus with 16 samples.

Results

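The genes described here are 10 members of the interleukin 1 axis and the inflammasome, out of 53700 genes listed in the count files: Il1rn, Il1a, Il1b, Il18, Il18bp, Il1rap, Nlrp3, Casp1, Casp4 and Pycard. They were picked by symbol, with earlier results on these libraries known, and their levels in the 4 groups belonged to that choice. The levels and changes of the 10 genes between genotypes and ages are therefore given as a description, with no p value. RNA was sequenced in bulk from microglia, the resident macrophages of the brain, sorted from whole brain in 16 libraries. The groups were Ercc1 KO at 6 weeks, WT at 6 weeks, Ercc1 KO at 12 weeks and WT at 12 weeks, with 4 libraries each. All mice carried a C57Bl6J/FVB cross background, and the sort gate took DAPI-negative, Ly6c-negative cells that were high for CD11b and intermediate for CD45. There were 2 males and 2 females per group at 6 weeks, and 3 males with 1 female per group at 12 weeks. Ercc1 encodes a subunit of a nuclease of DNA repair. The labels say ko or wt and do not give the allele, and they do not say whether a library came from 1 animal or from pooled animals.

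Interleukin 1 alpha and interleukin 1 beta bind the same receptor, which signals only once it has recruited the accessory chain encoded by Il1rap. The protein of Il1rn occupies that receptor without signalling and so blocks both ligands, while the protein of Il18bp captures interleukin 18. Inflammasomes are cytoplasmic complexes in which a sensor such as NLRP3 and the adaptor ASC, encoded by Pycard, activate caspase-1, which cleaves the precursors of interleukin 1 beta and interleukin 18 and opens membrane pores through gasdermin D. The mouse protein of Casp4, also called caspase-11, senses bacterial lipopolysaccharide inside the cell and cleaves gasdermin D as well. Messenger RNA levels do not show whether any of these caspases or cytokines was active.

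The sequences upstream of Il1rn and Casp4 are shown because these 2 members had the clearest separation of the genotypes at 12 weeks. RefSeq lists several starts for Il1rn, and the first pair of windows holds the 250 bases before an upstream and a downstream start, at chr2:24336610-24336859 and chr2:24345041-24345290 (GRCm38.p6, plus strand). The third window lies before a start of Casp4 at chr9:5308599-5308848 (GRCm38.p6, plus strand). Capitals mark the AP-1 motif TGANTCA or an NF-kB motif, searched on both strands.
Il1rn upstream start: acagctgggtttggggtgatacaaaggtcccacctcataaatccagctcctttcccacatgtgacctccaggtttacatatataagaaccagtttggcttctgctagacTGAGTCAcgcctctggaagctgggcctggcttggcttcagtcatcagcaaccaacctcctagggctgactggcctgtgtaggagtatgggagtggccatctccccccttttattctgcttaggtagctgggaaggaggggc
Il1rn downstream start: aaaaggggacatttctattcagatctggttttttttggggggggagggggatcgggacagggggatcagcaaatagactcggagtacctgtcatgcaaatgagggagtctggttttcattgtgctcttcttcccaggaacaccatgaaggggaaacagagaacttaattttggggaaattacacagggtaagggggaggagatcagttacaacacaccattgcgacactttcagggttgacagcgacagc
Casp4: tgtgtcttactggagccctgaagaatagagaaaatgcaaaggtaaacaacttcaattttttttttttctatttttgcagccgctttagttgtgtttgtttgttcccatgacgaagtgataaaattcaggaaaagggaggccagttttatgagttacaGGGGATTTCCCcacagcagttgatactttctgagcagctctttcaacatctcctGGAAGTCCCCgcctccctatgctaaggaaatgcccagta

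All 10 members had an entry in the RefSeq table, with 14 windows in all, since some genes have more than 1 start. The AP-1 motif stood in 2 of the 14 windows, those of the upstream Il1rn start and of Il1a, and in 6.75% of all 32851 windows of the same length. An NF-kB motif stood in 3 of the 14, in a window of Nlrp3 and in both windows of Casp4, which overlap each other, and in 7.25% of all windows. Of its 3 matches before Casp4, some share letters with each other, so they show as fewer runs of capitals. The interferon-stimulated response element, searched as GAAA and GAAA parted by 2 bases of any kind, was in 0 of 14 windows and in 2.98% of all, and the STAT motif TTCNNNGAA was in 0 of 14 and in 7.02% of all. Counts per gene do not tell which start was used.

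Levels below are CPM, read counts divided by a library size scaled by TMM, a factor that corrects for composition. Total counts ranged from 7882182 to 22142972 per library, and 3 counts, the floor used here, were worth 0.132 to 0.376 CPM. Ercc1 itself stood at 3.63 ± 0.803 CPM in 6-week KO against 18.8 ± 7.91 CPM in 6-week WT, and at 4.28 ± 2.80 CPM in 12-week KO against 20.7 ± 19.2 CPM in 12-week WT (SD, n = 4 each). The male-labelled 12-week WT replicate 5_6 held 339.5 CPM of Xist, where the other male libraries held 0 to 11.5 CPM, and 109 CPM summed over 4 genes of the Y chromosome, where the 6 female libraries held 0 to 9.85 CPM and the other 9 male libraries 258 to 421 CPM. In an earlier description of these data the 12-week WT replicates 3 and 8 stood apart from the others, and values without them are given where they move a fold between genotypes by over 1.5 times or end a call. All 10 markers of microglia were present in every group, with summed levels of 59813 to 70249 CPM in 6-week KO against 71753 to 78529 CPM in 6-week WT, and of 51359 to 54005 CPM in 12-week KO against 65105 to 72738 CPM in 12-week WT.

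Il1rn (ENSMUSG00000026981, chromosome 2), which encodes the interleukin 1 receptor antagonist, had counts in every KO library and in no WT library. It stood at 21.5, 23.1, 24.7 and 18.2 CPM in 6-week KO (replicates 1 to 4), against 0 CPM in each of the 4 6-week WT libraries. In 12-week KO it stood at 22.1, 43.5, 17.0 and 26.8 CPM (replicates 1 to 4), against 0 CPM in each of the 4 12-week WT libraries. Groups of the same age did not overlap, and the highest KO library was replicate 2 at 12 weeks. The KO libraries held 1170 reads of Il1rn at 6 weeks and 980 at 12 weeks, and the WT libraries held 0 at both ages. Set against a floor of 3 counts over the WT group, Il1rn was at least 284-fold higher in KO at 6 weeks and at least 475-fold higher at 12 weeks. The 12-week bound came to 272 without WT replicate 5_6, the most deeply sequenced library, and to 309 without WT replicates 3 and 8. In bulk RNA, more cells that hold a transcript and more transcript per cell cannot be told apart.

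Markers of other cell types were read beside Il1rn. Of 9 neutrophil markers Ly6g, Mmp8 and Cxcr2 were at 0 in all 4 groups, and the summed level was 0 to 2.01 CPM in 6-week KO against 0 to 75.2 CPM in 6-week WT, and 0 to 8.72 CPM in 12-week KO against 0 to 0.190 CPM in 12-week WT. The highest of these sums in KO, 8.72 CPM, was in 12-week replicate 2, which also had the most Il1rn, and the bound was 385 without that library. The highest in WT, 75.2 CPM, was in 6-week replicate 2, where Il1rn was at 0. Of 9 monocyte markers Ly6c2, Chil3 and Hp were at 0 in both KO groups and in 12-week WT. The monocyte sum was 9.95 to 36.7 CPM in 6-week KO against 7.12 to 20.1 CPM in 6-week WT, and 14.9 to 31.6 CPM in 12-week KO against 1.08 to 12.7 CPM in 12-week WT. All 10 markers of border macrophages, the macrophages of the meninges and vessels, were present in every group, with sums of 320 to 508 CPM in 6-week KO against 259 to 328 CPM in 6-week WT, and of 280 to 374 CPM in 12-week KO against 227 to 278 CPM in 12-week WT. At each age 9 of these 10 had a positive log2 change in KO, with medians of 1.63 at 6 weeks and 2.0 at 12 weeks, and Ms4a7 passed the test at 12 weeks (log2 change 3.49 ± 0.85, adjusted p = 0.0364, edgeR's quasi-likelihood test). The exception was Stab1, the most abundant of the 10. It averaged 184 CPM in KO against 229 CPM in WT at 6 weeks, and 142 against 216 CPM at 12 weeks. The border macrophage sums therefore rest largely on a marker that was lower in KO. Of the 9 monocyte markers 3 could be tested, all had a positive log2 change in KO at both ages, and 0 passed. Most border macrophage markers and those 3 monocyte markers were thus higher in KO, as Il1rn was. In 6-week KO the monocyte and border macrophage sums were highest in replicate 2, and Il1rn in replicate 3. In 12-week KO Il1rn and the monocyte sum were highest in replicate 2, and the border macrophage sum in replicate 4. The part of these cells in the level of Il1rn was not tested.

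**Figure D1:**
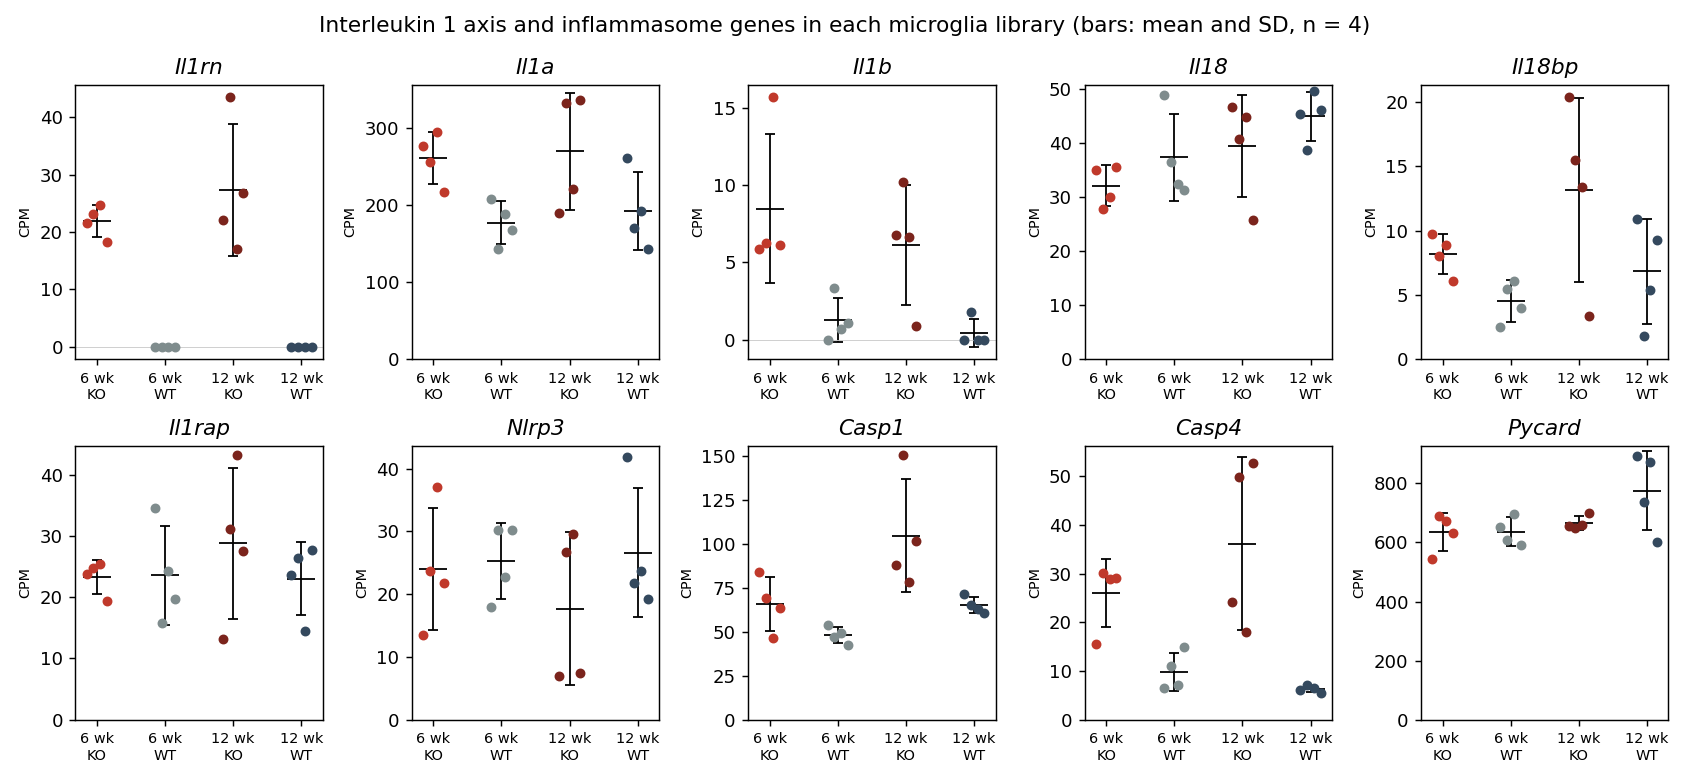
Level of each of the 10 genes in each of the 16 libraries, in CPM on TMM-scaled library sizes, with 1 panel per gene, points for libraries and bars for the group mean and SD (KO left of WT at each age, n = 4). Il1rn lies at 17.0 to 43.5 CPM in the 8 KO libraries and at 0 in the 8 WT libraries, while Pycard overlaps between genotypes at both ages.

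The ligand genes were present at very different levels. Per kilobase of exon, the average CPM was highest for Pycard and next for Il1a in every group. Il1a stood at 132 and 137 CPM per kb in 6-week and 12-week KO, against 89.6 and 97.3 CPM per kb in WT of the same ages, and Il18 at 31.1 and 38.3 CPM per kb in KO against 36.2 and 43.6 CPM per kb in WT. Il1b lay lowest of the ligands, at 4.45 and 3.21 CPM per kb in KO against 0.671 and 0.237 CPM per kb in WT. Il1rn, the antagonist, averaged 3.95 and 4.94 CPM per kb in KO, beside those values of Il1b in KO. Exon length here merged the exons of all annotated transcripts of a gene, 5535 bases for Il1rn and 1907 bases for Il1b. It can exceed the length of the transcript in use, so levels per kb of different genes compare only roughly.

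Il1a (ENSMUSG00000027399, chromosome 2) encodes a ligand that is active without cleavage by caspase-1. It had 278, 256, 295 and 217 CPM in 6-week KO, against 208, 143, 189 and 168 CPM in 6-week WT. At 12 weeks it had 190, 333, 221 and 337 CPM in KO, against 262, 170, 193 and 143 CPM in WT (WT replicates 3, 4, 5_6 and 8, the order used throughout). The groups did not overlap at 6 weeks and did at 12 weeks, where WT replicate 3 lay above KO replicates 1 and 3. The log2 change was 0.56 ± 0.21 at 6 weeks and 0.50 ± 0.21 at 12 weeks (± standard error of the fit, here and below).

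Il1b (ENSMUSG00000027398, chromosome 2), the ligand that needs cleavage, was a low transcript in every library. It had 5.84, 6.27, 15.7 and 6.15 CPM in 6-week KO, against 0, 3.31, 0.712 and 1.09 CPM in 6-week WT. In 12-week KO it had 6.77, 10.2, 6.65 and 0.877 CPM, against 0, 1.80, 0 and 0 CPM in 12-week WT. The groups did not overlap at 6 weeks, and at 12 weeks KO replicate 4 lay below WT replicate 4. In reads, KO held 423 at 6 weeks and 224 at 12 weeks, against 47 and 19 in WT, so that a single library weighed heavily. In the fit, its log2 change came to 2.79 ± 1.40 at 6 weeks and 3.67 ± 1.47 at 12 weeks. The 12-week log2 change was 2.61 without WT replicates 3 and 8. Without 12-week WT replicate 4 no WT read was left, and the KO level was at least 84.8-fold higher than a floor of 3 counts over the other 3 WT libraries. Neutrophils are a known source of Il1b. Replicate 2 of 6-week WT and replicate 2 of 12-week KO, which had the highest neutrophil sums of their groups, also had the highest Il1b there, and without the first of them the 6-week log2 change was 3.78. In 12-week WT replicate 4 held the only neutrophil sum above 0 and the only Il1b. That sum was 0.190 CPM, under the floor of 0.285 CPM for this library. In 6-week KO the highest neutrophil sum, 2.01 CPM, was in replicate 4, and the highest Il1b was in replicate 3, where that sum was 1.07 CPM. Immediate early genes, which respond to cell isolation, summed to 545 to 801 CPM in 6-week KO against 533 to 808 CPM in 6-week WT, and to 496 to 637 CPM in 12-week KO against 394 to 586 CPM in 12-week WT. Jun, Junb and Zfp36 made up most of these sums. Of the 9 immediate early genes tested, 6 had a positive log2 change in KO at 6 weeks and 7 at 12 weeks. Their median log2 change was 0.84 at 6 weeks and 0.48 at 12 weeks. Atf3 was the 1 of them that passed the test, at 12 weeks (log2 change 1.63 ± 0.42, adjusted p = 0.0479, edgeR). The part of neutrophil or immediate early RNA in the level of Il1b was not tested.

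Il18 (ENSMUSG00000039217, chromosome 9), the other ligand that caspase-1 cleaves, had 35.1, 27.8, 30.0 and 35.6 CPM in 6-week KO, against 48.9, 36.5, 32.5 and 31.3 CPM in 6-week WT. Libraries of 12-week KO had 46.7, 40.7, 44.8 and 25.8 CPM, against 45.4, 38.7, 49.6 and 46.1 CPM in 12-week WT. The groups overlapped at both ages. The log2 change was -0.22 ± 0.21 at 6 weeks and -0.18 ± 0.21 at 12 weeks, about as large as its error.

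Il18bp (ENSMUSG00000070427, chromosome 7), the secreted inhibitor of interleukin 18, had 9.74, 8.05, 8.85 and 6.04 CPM in 6-week KO, against 2.48, 5.48, 6.09 and 4.00 CPM in 6-week WT. In 12-week KO it had 20.4, 15.5, 13.4 and 3.38 CPM, against 10.9, 1.80, 5.39 and 9.29 CPM in 12-week WT. KO replicate 4 of 6 weeks lay just below WT replicate 3, and at 12 weeks the KO replicate 4 lay below 3 of the 4 WT libraries, so that the groups overlapped at both ages. In the fit, its log2 change came to 0.91 ± 0.56 at 6 weeks and 1.01 ± 0.55 at 12 weeks, and the 12-week log2 change of Il18bp was 1.80 without WT replicates 3 and 8.

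Il1rap (ENSMUSG00000022514, chromosome 16), the accessory receptor chain, had 23.8, 24.8, 25.4 and 19.3 CPM in 6-week KO, against 34.5, 15.8, 24.4 and 19.7 CPM in 6-week WT. Libraries of 12-week KO had 13.1, 31.1, 43.2 and 27.6 CPM, against 23.6, 26.4, 14.4 and 27.8 CPM in 12-week WT. The groups overlapped at both ages, with the lowest and the highest 12-week library both in KO. The log2 change was -0.03 ± 0.34 at 6 weeks and 0.30 ± 0.34 at 12 weeks.

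The sensor, the adaptor and the caspases did not share a direction. Nlrp3 (ENSMUSG00000032691, chromosome 11) had 13.5, 23.7, 37.1 and 21.8 CPM in 6-week KO, against 17.9, 30.3, 22.8 and 30.2 CPM in 6-week WT. In 12-week KO it had 6.97, 26.8, 29.7 and 7.40 CPM, against 41.9, 21.7, 23.6 and 19.3 CPM in 12-week WT. KO replicates 1 and 4 of 12 weeks were lower than every WT library, and KO replicates 2 and 3 lay within the WT range. In the fit, its log2 change came to -0.15 ± 0.40 at 6 weeks and -0.61 ± 0.40 at 12 weeks.

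Pycard (ENSMUSG00000030793, chromosome 7), which encodes the adaptor ASC, was the most abundant member by CPM and varied little. It had 545, 689, 674 and 632 CPM in 6-week KO, against 653, 607, 698 and 591 CPM in 6-week WT. Libraries of 12-week KO had 657, 650.4, 658 and 701 CPM, against 891, 737, 871 and 602 CPM in 12-week WT. The groups overlapped at both ages, and 3 of the 4 WT libraries of 12 weeks lay above all KO libraries of that age. The log2 change was -0.01 ± 0.11 at 6 weeks and -0.21 ± 0.11 at 12 weeks.

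Casp1 (ENSMUSG00000025888, chromosome 9), the caspase of the canonical inflammasome, had 84.4, 69.3, 46.7 and 63.5 CPM in 6-week KO, against 53.9, 47.0, 49.2 and 42.8 CPM in 6-week WT. In 12-week KO it had 88.4, 151, 78.5 and 102 CPM, against 71.8, 65.4, 63.4 and 60.7 CPM in 12-week WT. KO replicate 3 of 6 weeks lay within the WT range, while at 12 weeks the groups did not overlap. In the fit, its log2 change came to 0.44 ± 0.20 at 6 weeks and 0.67 ± 0.20 at 12 weeks.

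Casp4 (ENSMUSG00000033538, chromosome 9), of which a window with NF-kB motifs is printed above, separated the genotypes at both ages. It had 15.5, 30.2, 28.9 and 29.1 CPM in 6-week KO, against 6.47, 11.0, 7.04 and 14.9 CPM in 6-week WT. Libraries of 12-week KO had 24.1, 49.7, 18.0 and 52.8 CPM, against 6.06, 7.12, 6.49 and 5.49 CPM in 12-week WT. The groups did not overlap, although 6-week KO replicate 1 lay only just above 6-week WT replicate 4. The mean was 25.9 ± 6.98 CPM in 6-week KO against 9.85 ± 3.93 CPM in 6-week WT, and 36.2 ± 17.7 CPM in 12-week KO against 6.29 ± 0.691 CPM in 12-week WT (SD, n = 4 each). The log2 change was 1.42 ± 0.38 at 6 weeks and 2.50 ± 0.39 at 12 weeks. Most border macrophage markers and the monocyte markers tested were also higher in KO, as given beside Il1rn, and their part in the level of Casp4 was not tested.

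All 10 members passed the filter on low counts, Il1rn through the KO groups alone. Il1b also needed the KO libraries to pass, since too few WT libraries held enough reads of it. Past the threshold of an adjusted p of 0.05 over the 17090 genes tested were 1 of 10 at 6 weeks, Il1rn, where 0.872% of all genes passed (0.796% higher and 0.0761% lower in KO). At 12 weeks 2 of 10 were past it, Il1rn and Casp4, where 2.98% of all genes passed (2.03% higher and 0.954% lower in KO). These members were higher in KO, and since the same contrast belonged to the choice of the genes, nothing is read from the counts. Every KO library lay above every WT library for 4 of 10 at 6 weeks (Il1rn, Il1a, Il1b and Casp4), beside 4.92% of all genes, and for 3 of 10 at 12 weeks (Il1rn, Casp1 and Casp4), beside 5.13% of all genes. For 0 of 10 did every KO library lie below every WT library, beside 2.96% of all genes at 6 weeks and 3.08% at 12 weeks. The median log2 change of the 10 was 0.50 at 6 weeks and 0.59 at 12 weeks, and that of all genes tested was -0.02 and -0.03.

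**Figure D2:**
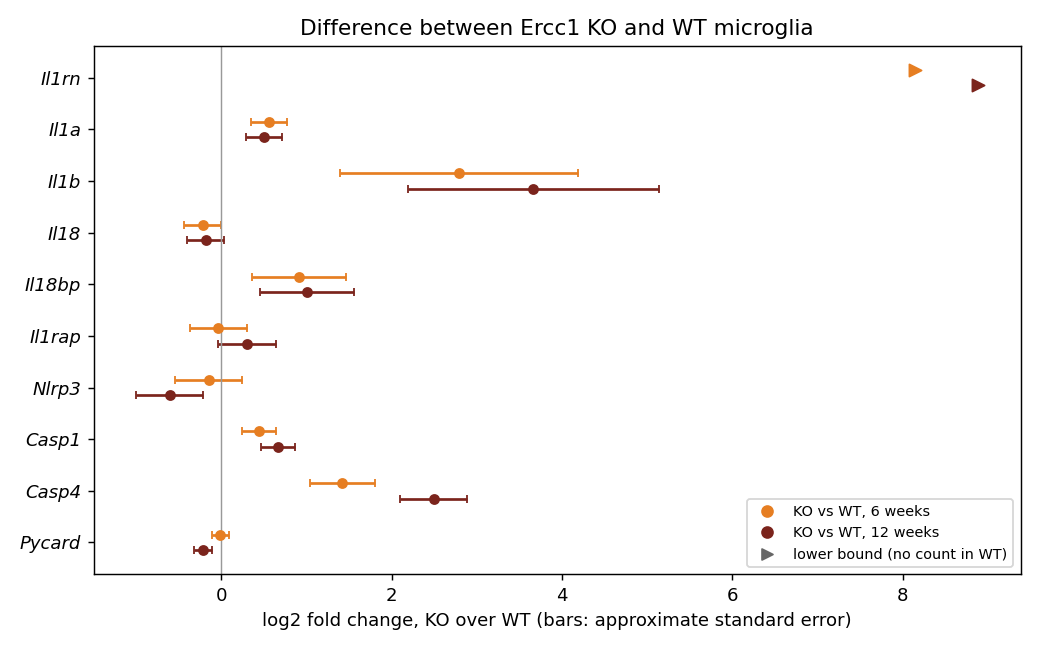
Log2 change of KO over WT for the 10 genes at 6 and at 12 weeks (colours), with points for the fitted change and bars for its standard error. Triangles give Il1rn, which has only a lower bound (at least 284-fold and at least 475-fold), because no WT library held a read of it, and Casp4 lies at 1.42 and 2.50 with bars that stay above 0.

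Differences between the ages were small beside those between the genotypes for Il1rn. For Casp4 they were smaller than those between the genotypes, by less of a margin. In KO, 12 against 6 weeks, Il1rn averaged 27.4 ± 11.5 CPM at 12 weeks and 21.9 ± 2.80 CPM at 6 weeks (SD, n = 4 each), a log2 change of 0.25 ± 0.42. The largest change of a member with age in KO was that of Il18bp, with 13.2 ± 7.16 CPM at 12 weeks and 8.17 ± 1.58 CPM at 6 weeks, a log2 change of 0.82 ± 0.56. Casp1 in KO had 105 ± 32.0 CPM at 12 weeks and 66.0 ± 15.6 CPM at 6 weeks, a log2 change of 0.63 ± 0.21 with a smaller error. In WT, Casp1 had 65.3 ± 4.74 CPM at 12 weeks and 48.2 ± 4.60 CPM at 6 weeks, a log2 change of 0.40 ± 0.21 (0.27 without WT replicates 3 and 8 of 12 weeks), and it was the 1 of 10 whose 12-week WT libraries all lay above the 6-week ones, beside 2.31% of all genes, while 0 of 10 lay below, beside 3% of all genes. In KO the ages overlapped for all 10 members, where 3.05% of all genes lay above and 3.51% below. WT Casp4 had 6.29 ± 0.691 CPM at 12 weeks and 9.85 ± 3.93 CPM at 6 weeks, a log2 change of -0.69 ± 0.39. The difference between its genotype effects, 12 minus 6 weeks, was 1.08 ± 0.53 on the log2 scale. None of the 10 passed the threshold in KO, where 0.0234% of all genes passed, in WT, where 0.0117% passed, or in the difference, where 0.00585% passed. These 3 counts of 0 came from edgeR, and DESeq2 also gave 0 in each. With an unadjusted p under 0.05 there were 1 (Casp1), 1 (Pycard) and 0 of the 10, beside 8.8%, 7.44% and 4.74% of all genes. Pycard in WT averaged 775 CPM at 12 weeks and 637 CPM at 6 weeks, a log2 change of 0.31 ± 0.11. The contrasts of the ages also belonged to the choice of the genes, so nothing is read from how many members passed. The genotype effects at both ages and the changes with age share groups, so they are not independent of each other.

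Sex was not used to choose the genes and was tested in the same fit. None of the 10 passed the threshold between males and females, where 0.0293% of all genes passed, and DESeq2 also gave 0. With an unadjusted p under 0.05 there was 1, beside 3.32% of all genes: Nlrp3, at a male over female log2 change of -0.71 ± 0.29 (adjusted p = 0.9999, edgeR). Over the 10 genes the male over female log2 change ran from -0.71 for Nlrp3 to 0.20 for Casp4, where the error was 0.30. It was 0.18 ± 0.42 for Il1rn. The count stayed at 0 without the 12-week WT library that carried both Xist and Y-linked RNA.

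The rest of the pathway was read from a list of 47 genes: 6 further ligands, 9 receptors and decoys, 12 genes of receptor signalling, 15 inflammasome sensors and activators, and 5 effectors. No read was found for 7 of them (Il36a, Il36b, Il36g, Il1f10, Il18r1, Nlrp12 and Mefv), and 14 in all were too low to test, among them all 6 ligands. Of the 33 tested, 0 passed at 6 weeks by edgeR and by DESeq2, and 1 had an unadjusted p under 0.05, the ubiquitin ligase gene Peli1, beside 7.31% of all genes. At 12 weeks 1 of 33 was higher in KO, beside 2.03% of all genes, and 0 lower, beside 0.954% of all genes, so that the share called was near that over all genes. Of the 33, 8 had an unadjusted p under 0.05 at 12 weeks, beside 14.4% of all genes. The median log2 change of the 33 was 0.03 at 6 weeks and -0.11 at 12 weeks.

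Naip5, which in mice encodes a receptor for bacterial flagellin that works with NLRC4, was the gene that passed. It had 55.8, 74.3, 69.8 and 72.1 CPM in 12-week KO, against 21.1, 42.0, 30.4 and 25.4 CPM in 12-week WT. The groups did not overlap, and the log2 change was 1.18 ± 0.25 (adjusted p = 0.0168, edgeR). At 6 weeks it averaged 56.3 ± 12.3 CPM in KO against 49.4 ± 16.2 CPM in WT (SD, n = 4 each), a log2 change of 0.19 ± 0.25. The difference between both ages, 0.98 ± 0.35, did not pass (adjusted p = 1, edgeR). The 12-week call was lost without KO replicate 2 (adjusted p = 0.0549), without WT replicates 3 and 8 (log2 change 0.83, adjusted p = 0.159) and in a fit to the 12-week libraries alone (adjusted p = 0.0575), all by edgeR. Naip5 has close copies, so reads may have been split among them, and its partner Nlrc4 was too low to test. The copies Naip2 and Naip6 did not pass at 12 weeks, at 0.74 ± 0.32 and 0.47 ± 0.36. Naip2 did not overlap between genotypes at 12 weeks either, with 62.2 to 95.7 CPM in KO against 40.1 to 51.6 CPM in WT. Of the 33 pathway genes tested, 2 lay higher in 12-week KO without overlap, beside 5.13% of all genes, and 2 lower, beside 3.08%.

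Other genes of the receptor signalling and activator groups went either way in 12-week KO without passing. The median log2 change was -0.18 for the 12 receptor signalling genes and 0.15 for the 10 sensors and activators tested. Irak3, of the receptor signalling genes, lay higher in KO, at 1.86 ± 0.90 (adjusted p = 0.363, edgeR). Tab1, Txnip and Nek7 lay lower. Tab1, a subunit of the kinase complex downstream of the receptor, had 11.6, 5.53, 5.42 and 11.4 CPM in 12-week KO, against 13.6, 34.7, 12.6 and 25.7 CPM in 12-week WT, a log2 change of -1.35 ± 0.38 (adjusted p = 0.0743, edgeR). At 6 weeks the log2 change of Tab1 was 0.36 ± 0.37. Txnip, whose protein binds thioredoxin and has been linked to NLRP3, averaged 148 ± 42.6 CPM in 12-week KO against 227 ± 37.5 CPM in 12-week WT (SD, n = 4 each), a log2 change of -0.63 ± 0.18 (adjusted p = 0.0799, edgeR). Tab1 and Txnip passed with DESeq2, which called 3 of the 33 at 12 weeks. Nek7, a kinase that binds NLRP3, stood at -0.53 ± 0.17 (adjusted p = 0.133, edgeR). Among the effectors, Gsdmd, the pore-forming substrate of caspase-1 and caspase-11, averaged 127 ± 7.75 CPM in 12-week KO against 108 ± 26.5 CPM in 12-week WT, a log2 change of 0.23 ± 0.17. The adaptor Myd88 stood at 0.03 ± 0.19 at 6 weeks and at -0.04 ± 0.19 at 12 weeks.

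For the signalling receptor Il1r1, which both ligands and the antagonist bind, the level was low, with 768 reads over 11 of the 16 libraries. Its log2 change of 1.23 ± 1.62 at 6 weeks and of 2.69 ± 1.72 at 12 weeks had an error too wide to give a direction. The decoy receptor Il1r2 had 112 reads over 5 libraries and was not tested. Il18rap, a chain of the interleukin 18 receptor, had 192 reads over 6 libraries and none in 12-week WT. Across ages, 0 of the 33 passed in KO, in WT or in the difference, with 5, 4 and 4 genes at an unadjusted p under 0.05, where the shares of all genes are given above, and DESeq2 gave 1 (Tab1), 0 and 0.

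**Figure D3:**
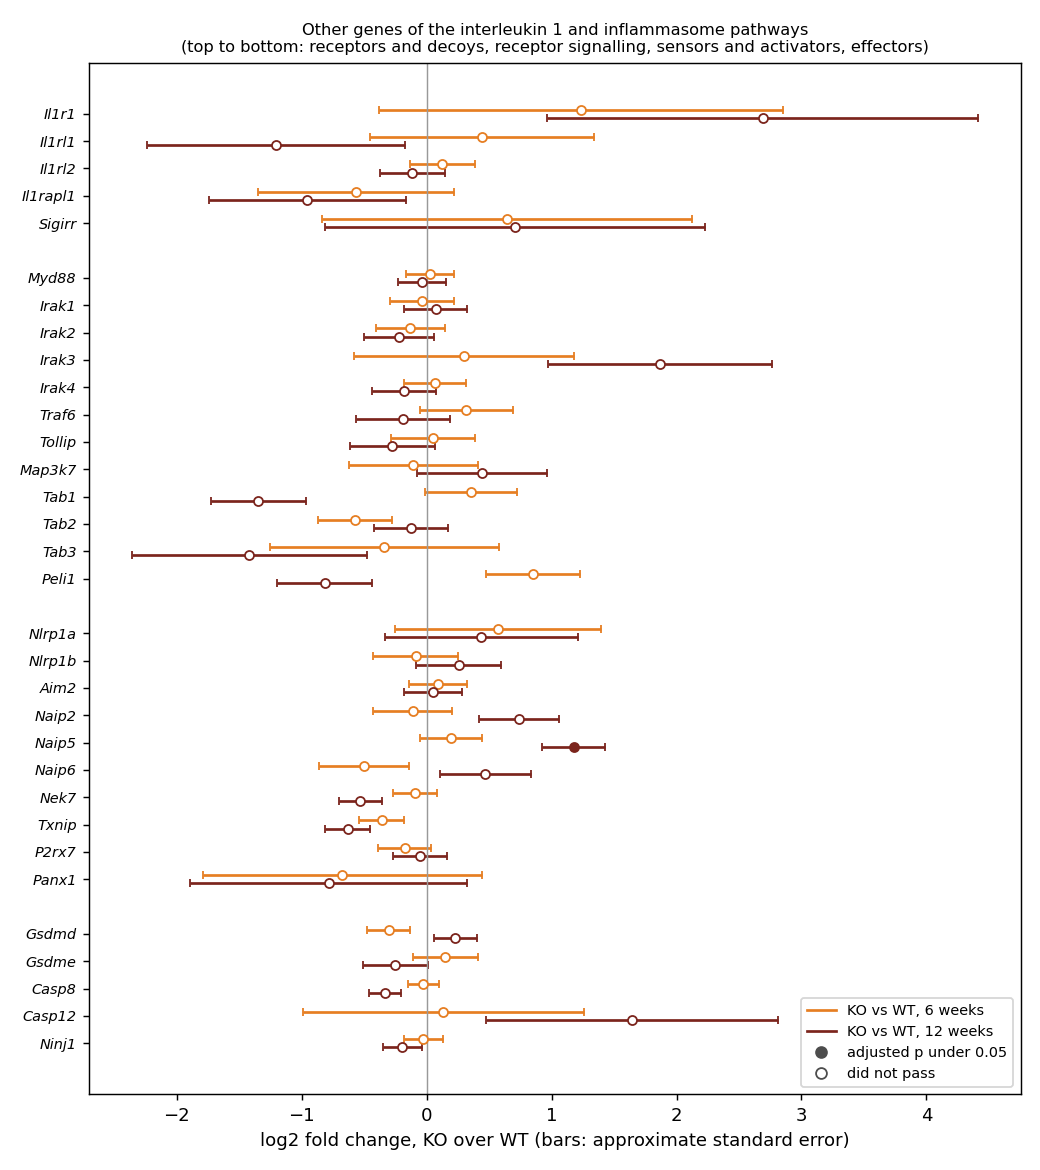
Log2 change of KO over WT for the tested genes of the pathway list, by role, at 6 and at 12 weeks (colours), with bars for the standard error and filled points for an adjusted p under 0.05. Il18rap is left out because 12-week WT held no read of it, and of the others only Naip5 at 12 weeks (1.18) passed the threshold.

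The genes most like Il1rn were looked for by Pearson's r of log2(CPM + 0.5) over the 16 libraries among 9651 genes with a mean of at least 5 CPM. The 6 highest were Ctsb (r = 0.981), Ctsz (0.978), Cd74 (0.976), H2-D1 (0.975), Lpl (0.974) and Ccl5 (0.973). Ctsb and Ctsz encode lysosomal proteases, Cd74 the invariant chain of MHC class II, H2-D1 an MHC class I chain, Lpl lipoprotein lipase and Ccl5 a chemokine. Ccl5 averaged 50.03 and 104 CPM in 6-week and 12-week KO, against 1.09 and 0.548 CPM in WT of the same ages. Ctsb averaged 7052 and 7973 CPM in KO against 3837 and 3495 CPM in WT. The 16 libraries fall into KO and WT, so r mostly reflects that step and is a description. Within the 10 members, r with Il1rn was 0.898 for Casp4, 0.795 for Il1b, 0.723 for Il1a and 0.624 for Casp1, and it was negative for Il18, Nlrp3 and Pycard.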

How the data were processed

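RNA from sorted mouse microglia was sequenced in 16 libraries. The files the authors deposited hold raw read counts, 1 per gene and library. The submitters' processing notes list HTSeq 0.11.0, TopHat, Picard 2.13.2, SAMtools 1.10, cutadapt 2.10 and FastQC 0.11.9, with GRCm39 as build. Strand setting, annotation release and the handling of multi-mapped reads were not given in the sources used here.

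The counts were tested in R 4.3.3 with edgeR 4.0.16 (limma 3.58.1): filterByExpr by group with a minimum count of 10, which kept 17090 genes, TMM scaling, and a robust quasi-likelihood fit to all 16 libraries with terms for group and sex. P values are two-sided, adjusted by the Benjamini-Hochberg method over those genes, and called under 0.05. Standard errors were taken as the size of a log2 change over the root of its F statistic, and are unreliable where a group has few counts. Groups with no count were set to 3 counts over the group. Floors cover counting error only, because PCR copies of a molecule were not told apart. The fit was tested on simulated data. Exon lengths came from GENCODE vM21 and promoter sequences from RefSeq, both on GRCm38, another build than that of the counts, so no position was carried over.

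The 10 members, the pathway list and the marker lists were chosen with earlier results of these data known. The rule named all members, pathway genes past the threshold and the 6 genes most like Il1rn. Other pathway genes were named after their values were seen. Nothing in the labels says that libraries came from separate animals, so p values measure the spread between libraries. Libraries with the same replicate number were checked for pairing and were not paired (given under the alternatives). The alternatives were RLE factors, DESeq2 1.42.0, no filter, no sex term, a fit to the groups compared, a replicate block and leaving out libraries.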

Additional observations from a re-analysis of the deposited data

Results flagged for a closer look

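In 42 sets of 4 libraries (each member, and Naip5, in each group with a read), 4 held a library past the cutoff of Dixon's test. Its rate of about 1 in 20 holds for normal values, which low counts do not give, so nothing is read from the number. Il1b stood at 15.7 CPM in 6-week KO replicate 3, where the next library held 6.27 CPM. Without it the log2 change of KO over WT for Il1b at 6 weeks was 2.35, against 2.79 with it. Il1b stood at 1.80 CPM in 12-week WT replicate 4, where the other 3 libraries of that group held 0, a pattern that passes the cutoff at any level above 0. Casp4 stood at 15.5 CPM in 6-week KO replicate 1, where the next library held 28.9 CPM. Pycard stood at 701 CPM in 12-week KO replicate 4, a small step above the 650.4 to 658 CPM of the rest of that group.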

How the results depend on the processing

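Over 23 alternatives, the log2 change of KO over WT kept its sign at 12 weeks for the 9 members that have one. At 6 weeks it kept its sign for 6 of the 9, and Il1rap (21 of 23), Nlrp3 (22 of 23) and Pycard (20 of 23), whose changes were smaller than their errors, did not in every one. Casp4 at 12 weeks ran from 2.29 to 2.78 and passed in all 23. Members past the threshold numbered 2 at 6 weeks with DESeq2 or with no filter (Casp4 added), against 1. At 12 weeks they numbered 4 with no filter (Il1a and Il1b added) and 3 with DESeq2 (Casp1 added, log2 change 0.68), against 2. The contrasts belonged to the choice of the genes, so nothing is read from which members passed. Without WT replicates 3 and 8 the 12 over 6 weeks change of Il18bp in WT was -0.11, against 0.72, and that of Il1b 0.16, against -1.14. Without WT replicate 4 the KO over WT log2 change of Il1b at 12 weeks was 9.21, a fitted value with no WT read left. Il1b was past the threshold in that fit as well. The Il1rn bound ran from 191 to 299 at 6 weeks and from 272 to 544 at 12 weeks when a library was left out.

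Of the 33 pathway genes, the 12-week count of 1 became 3 with DESeq2, 5 with no filter, 0 in a fit to the groups compared and 0 without WT replicates 3 and 8. It ran from 0 to 2 when a library was left out, with 0 without KO replicate 2, and 2 without KO replicate 3 or without WT replicate 5_6. With no filter the 6-week count of 0 became 1 (Peli1), the count across ages became 1 in KO (Tab1) and 2 in WT (Peli1 and P2rx7), and that of the difference 1 (Peli1). In KO across ages DESeq2 and a fit with no sex term also gave 1 (Tab1). DESeq2 called more genes in all, 366 against 149 at 6 weeks and 1158 against 510 at 12 weeks. The cause of these shifts was not tested.

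Replicate numbers did not pair the libraries: over 12 pairs with the same number, deviations from the group means correlated at -0.02 to 0.07. With a replicate block, 2 pathway genes passed at 12 weeks (Peli1 and Casp12), and Naip5 had a log2 change of 1.13 and an adjusted p of 0.215 by edgeR, where its adjusted p ran from 0.000177 to 0.215 over all alternatives. Depth limits Il1b and Il1r1, whose reads are few in most libraries.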
